A study of Homo sapiens with 2 samples.

Results

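The septins examined here are the 10 genes SEPTIN2 to SEPTIN11, a family of GTP-binding cytoskeletal proteins that includes SEPTIN7, reported in earlier work as a target of the microRNA miR-127-3p. Members were all array probe sets annotated to 1 gene symbol that names one of these septins, by its present or its older SEPT symbol. A probe set is a group of short oligonucleotides that together measure 1 transcript. This rule gave 31 probe sets of 54675 on the array, for 9 of the 10 genes, out of 19775 genes with a probe set of their own. SEPTIN5 had none of its own, because both probe sets that list it also list other genes. RNA came from cells labelled LN229, a long-established glioblastoma line of human origin. Several epithelial markers were bright only on the control array, for example EPCAM at 9181 against 30.2 with miR-127-3p, and these arrays do not settle whether the same line was in both cultures, which bears on every ratio below. One culture carried pSUPER.neo-miR-127-3p, a plasmid that drives the microRNA, and the other carried pSUPER.neo alone as the control. Both were grown in the same serum-containing medium, and whether either culture was a clone or a pool is not given in the sources used here. The comparison asks which septin transcripts differ when the microRNA is overexpressed. Each group had 1 array, so there is no replicate check and no p-value for any difference, and an effect of the plasmid cannot be told apart from any other difference between the cultures.

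Septins join end to end into mixed complexes, which assemble into filaments and rings at the cell cortex, at the base of cilia and at the cleavage furrow of dividing cells. They fall into groups by sequence, named after SEPTIN2, SEPTIN3, SEPTIN6 and SEPTIN7, and members of a group can replace each other at the same place in a complex. SEPTIN7 is the only functional gene of its group, so it has no such stand-in. A microRNA pairs with messenger RNAs mainly through its seed, a short stretch near its 5′ end, and pairing usually lowers the level or the translation of the message. The array measures transcript level only, and neither septin protein nor mature microRNA was measured.

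The sequence of the overexpressed microRNA is shown because it defines the treatment. Both forms are from RefSeq, build GRCh38.p14, on the plus strand of chromosome 14, with the mature form at chr14:100883035-100883056 and its hairpin precursor at chr14:100882979-100883075. Capitals mark the seed, bases 2 to 8, in the mature form, and the whole mature form within the hairpin.
hsa-miR-127-3p: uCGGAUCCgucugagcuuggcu
MIR127 hairpin: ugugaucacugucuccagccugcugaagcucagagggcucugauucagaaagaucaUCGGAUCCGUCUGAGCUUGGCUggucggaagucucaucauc
Of 2370 mature human microRNA names in the RefSeq table, miR-127-3p alone carried this seed. Pairing of the seed with septin transcripts was not analysed here.

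SEPTIN7 itself was brighter, not dimmer, on the miR-127-3p array, while SEPTIN6 was the septin with the largest difference and was dimmer there. At their brightest probe sets, SEPTIN9 and SEPTIN8 were moderately dimmer with miR-127-3p, and SEPTIN2, SEPTIN10 and SEPTIN11 differed little. Some weaker SEPTIN11 probe sets differed as much as some of SEPTIN8 and SEPTIN9. Signals are in arbitrary units on a linear scale. A log2 ratio is the miR-127-3p value minus the control value of log2(signal + 1), less the median over all probe sets above a signal filter. The filter kept probe sets whose log2 values, averaged over the arrays, exceeded the median, equal to a signal of about 83.0, and 26 of the 31 septin probe sets passed it. To give the error within an array pair, probe sets of the same gene differed with an SD of 0.44 per probe set (18050 pairs from 5974 genes), which holds no variation between cultures.

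**Figure D1:**
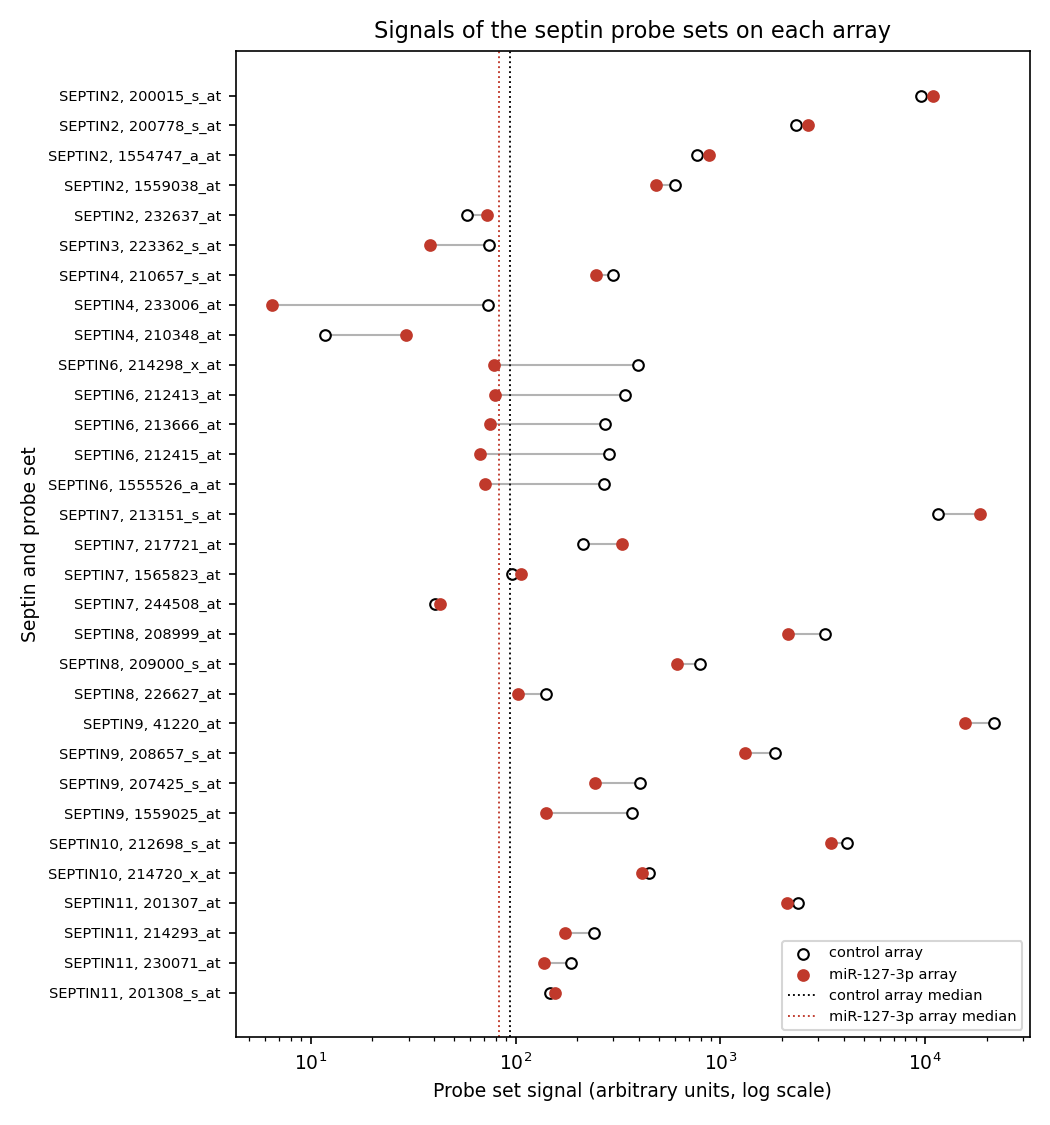
Signal of each of the 31 septin probe sets (horizontal, arbitrary units on a log axis) on the control array (open) and the miR-127-3p array (filled), with dotted lines at each array's median. The 5 SEPTIN6 probe sets sit left of the miR-127-3p median on that array and at 270 to 395 on the control array, and all 4 SEPTIN7 probe sets lie further right with miR-127-3p.

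SEPTIN7, a core subunit of septin complexes, had 4 probe sets. The brightest, 213151_s_at, gave 18429 on the miR-127-3p array against 11511 on the control array, which is a log2 ratio of 0.68 or 1.60-fold higher. The next, 217721_at, gave 331 and 213, a log2 ratio of 0.63. The pair therefore differed by a similar amount although their signals lie far apart. Another, 1565823_at, gave 106 and 96.5, a log2 ratio of 0.14. The last, 244508_at, was below the filter with 42.7 and 40.3. All 4 were on the higher side with miR-127-3p and none reached 2-fold. Of all probe sets with 1 symbol above the filter, 12.2% had a ratio at or above that of the brightest SEPTIN7 probe set. Among the 365 whose mean log2 signal lay within 0.5 of it, the share was 7.40%. Of 2681 genes with at least 3 probe sets above the filter, 24.7% had every one above 0, as SEPTIN7 did.

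Transcripts related to SEPTIN7 did not all lie on the same side as the gene. SEPTIN7-DT, the divergent long non-coding RNA that starts next to SEPTIN7, gave 254 on the miR-127-3p array against 247 on the control array (log2 ratio 0.04). SEPTIN7 has many pseudogenes, and 5 of them had 13 probe sets, of which 5 passed the filter. These 5 probe sets belong to SEPTIN7P2 and SEPTIN7P14 only. Of the 5 probe sets, 4 were dimmer and 1 was brighter with miR-127-3p, with log2 ratios from -0.86 to 0.29. SEPTIN7P2, a transcribed pseudogene, gave 257 and 424 at its brightest probe set, a ratio of -0.72, and 348 and 284 at the next, a ratio of 0.29. No pseudogene probe set gave a signal above 424. The suffix _s_at of the brightest SEPTIN7 probe set marks oligonucleotides that can match more than 1 transcript, so a contribution of these copies to its signal was not tested.

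SEPTIN6, the X-linked septin that names its group and occupies the place next to SEPTIN7 in complexes, was dimmer with miR-127-3p at all 5 of its probe sets. The brightest, 214298_x_at, gave 78.5 on the miR-127-3p array against 395 on the control array. The other 4 gave 78.9 and 341 at 212413_at, 74.6 and 274 at 213666_at, 66.6 and 286 at 212415_at, and 70.6 and 270 at 1555526_a_at. Every one was below the median of 83.3 on the miR-127-3p array and above the median of 93.9 on the control array. Their log2 ratios ran from -2.32 to -1.86. Because the dimmer signals are under the array median, folds are given as lower limits against that median, a floor chosen for this work and not a detection call. These limits were at least 4.70-fold lower at the brightest probe set and at least 3.21-fold at 1555526_a_at, the smallest of the 5.

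The 5 SEPTIN6 probe sets lay within 0.46 of each other in log2 ratio. Of the 2681 genes with at least 3 probe sets above the filter, 31.1% spanned as little, and their median span was 0.65. A ratio at or below the SEPTIN6 probe set nearest to 0 was found for 2.37% of all probe sets with 1 symbol above the filter. Of 434 genes with at least 5 such probe sets, 5 genes, or 1.15%, had every one at least 2-fold lower. The SEPTIN6 probe sets passed the filter through the control array, where they were bright, so a large difference is in part built into their passing. They may also share stretches of the transcript, so they are not independent measurements. Epithelial marker genes were dimmer on the same array, summing over 12 genes to 8108 with miR-127-3p against 94491, and their part in the SEPTIN6 value was not tested. In RNA from whole cultures, fewer cells that express a gene and less RNA of it per cell cannot be told apart.

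**Figure D2:**
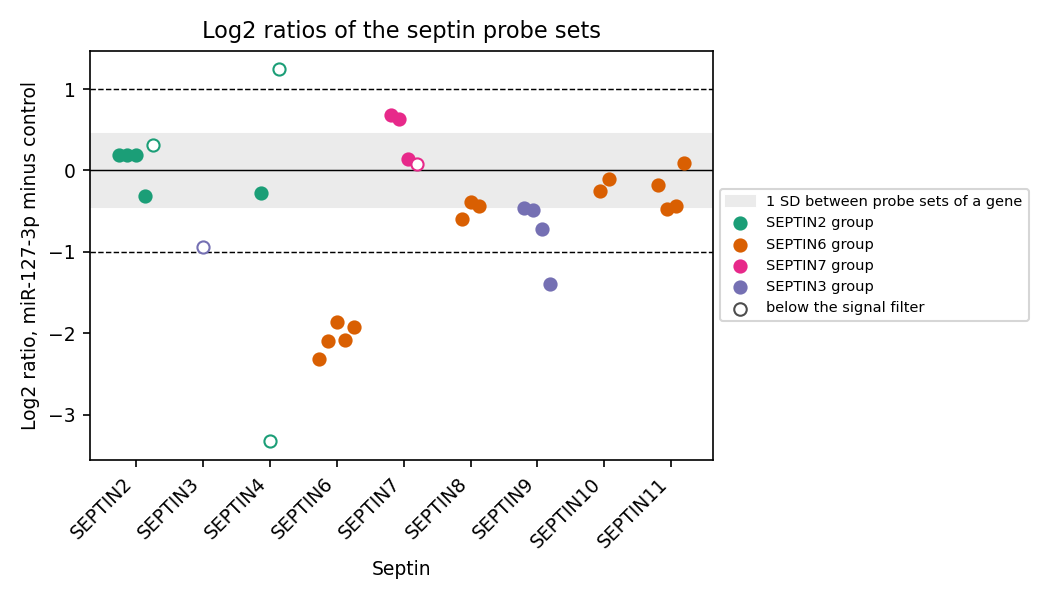
Log2 ratio (vertical, miR-127-3p minus control) of each septin probe set, coloured by septin group, with open points below the signal filter, dashed lines at 2-fold and a grey band of 1 SD (0.44) between probe sets of a gene. The SEPTIN6 points lie between -2.32 and -1.86, the SEPTIN7 points lie above 0, and 1 SEPTIN9 point lies at -1.40.

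The other members of the SEPTIN6 group, which can take its place in a complex, differed far less. SEPTIN8 at its brightest probe set, 208999_at, gave 2131 against 3235 in the control, a ratio of -0.60 or 1.52-fold lower. Its other probe sets gave 612 and 798 at 209000_s_at and 103 and 140 at 226627_at, with ratios of -0.38 and -0.44. All 3 SEPTIN8 probe sets were thus dimmer with miR-127-3p and lay within 0.22 of each other. SEPTIN10 gave 3470 and 4134 at 212698_s_at and 416 and 446 at 214720_x_at, with ratios of -0.25 and -0.10. SEPTIN11 gave 2113 and 2388 at 201307_at, a ratio of -0.18. Its weaker probe sets lay on both sides of 0, at -0.47 for 214293_at, -0.44 for 230071_at and 0.09 for 201308_s_at. The ratios of SEPTIN10, of SEPTIN11 other than 214293_at and of SEPTIN8 other than 208999_at lay within the SD of 0.44 between probe sets. For 226627_at and 230071_at this was by a narrow margin. Against an SD of 0.35, taken from the median difference between probe sets, these and 209000_s_at lay outside. Over the whole group, 13 of 14 probe sets above the filter had ratios below 0, beside 49.0% of all probe sets with 1 symbol, and 5 of the 14 come from SEPTIN6. Those 5 passed the filter through the control array, so their side of 0 is in part built in. The 14 come from 4 genes, so they are not independent. No SEPTIN8, SEPTIN10 or SEPTIN11 probe set reached a ratio above 0.09.

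SEPTIN9, which sits at the centre of the longer septin complexes and whose group also holds SEPTIN3, was dimmer with miR-127-3p at all 4 probe sets. The brightest, 41220_at, gave 15593 against 21563 in the control, a ratio of -0.47. Next came 208657_s_at with 1316 and 1841, a ratio of -0.48, so the bright probe sets agreed closely. Weaker probe sets differed more, 207425_s_at with 243 and 403 (a ratio of -0.72) and 1559025_at with 140 and 370. The last had a ratio of -1.40, or 2.63-fold lower, and it was the only septin probe set outside SEPTIN6 past 2-fold among those above the filter. A ratio as low as that was found for 4.08% of all probe sets with 1 symbol above the filter, and 24.0% of the 2681 genes with at least 3 such probe sets had every one below 0, as SEPTIN9, SEPTIN8 and SEPTIN6 did. For SEPTIN6 this is in part built in, since its probe sets passed the filter through the control array. SEPTIN9 spanned 0.93 over its probe sets, and 71.3% of the genes with at least 3 spanned no more. SEPTIN9 is transcribed from several start sites into different isoforms, and which isoform each probe set measures was not analysed here. SEPTIN3, found mainly in neurons, was below the filter with 38.3 and 74.4 and lay under both array medians.

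In the SEPTIN2 group, SEPTIN2, a subunit of septin complexes in most cell types, differed little. Its 3 brightest probe sets gave 10865 and 9565, 2668 and 2333, and 878 and 767, the miR-127-3p value first in each pair. Their log2 ratios of 0.18, 0.19 and 0.19 were close together. The fourth, 1559038_at, gave 483 and 599, a ratio of -0.31 on the opposite side, and the fifth was below the filter with 72.3 and 57.9. SEPTIN4, a septin with a splice form implicated in apoptosis, gave 246 and 299 at its probe set above the filter, a ratio of -0.28. Its other probe sets were under both array medians, 233006_at with 6.44 and 73.6 and 210348_at with 29.2 and 11.8. They point in opposite directions, and no fold is given because both signals are dim. SEPTIN5 has no value here, and the SEPT5-GP1BB read-through locus that contains it gave at most 40.8 on either array. Of the septins outside the 10, SEPTIN1 gave 41.2 and 49.7 and SEPTIN12, a testis septin, gave 17.9 and 4.58, all under the array medians.

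At the brightest probe set above the filter, the order of the 8 measured septins by log2 ratio was SEPTIN7 at 0.68, SEPTIN2 at 0.18, SEPTIN11 at -0.18, SEPTIN10 at -0.25, SEPTIN4 at -0.28, SEPTIN9 at -0.47, SEPTIN8 at -0.60 and SEPTIN6 at -2.32. The SD of a difference between single probe sets, taken from the spread within genes, is 0.63. SEPTIN7 and SEPTIN2 were 0.50 apart and the neighbours from SEPTIN2 to SEPTIN8 less, so none of these neighbours differed beyond that spread. Among probe sets above the 75th percentile of signal, where SEPTIN7 and SEPTIN2 lie, the SD of a difference is 0.41, and by that measure the gap between SEPTIN7 and SEPTIN2 is larger than the spread. SEPTIN6 has only a limit, and with signals under an array's median set to that median it lay at least 1.63 below SEPTIN8, its nearest neighbour. Signals were not compared between septins, because probe sets differ in how strongly they bind.

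Of the 26 septin probe sets that passed the filter, 6 had signals lower by 2-fold or more on the miR-127-3p array and none had signals higher by as much. The same limits were passed by 7.92% and 5.42% of all 22459 probe sets with 1 symbol above the filter. The 6 are the 5 of SEPTIN6 and 1 of SEPTIN9, so they stand for 2 genes. The 5 of SEPTIN6 passed the filter through the control array, so their place in this count is in part built in. Among probe sets above the array median on both arrays, 1 of 21 septin probe sets was at least 2-fold lower. The share of all such probe sets with 1 symbol was 5.57%. By gene, 1 of 8 septins was at least 2-fold lower at its brightest probe set, beside 8.51% of 11985 genes, and none was at least 2-fold higher, beside 5.21%. The median log2 ratio was -0.41 over the 26 septin probe sets and 0.01 over all 22459. Without the SEPTIN6 probe sets it was -0.28 over 21, of which 14 were below 0, beside 49.0% of all 22459. These 21 come from 7 genes, so they are not independent. Over all 31 septin probe sets with no filter, 7 were at least 2-fold lower and 1 was higher, beside 17.9% and 14.0% of all 41091 probe sets with 1 symbol, and the median was -0.38 beside -0.02.

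**Figure D3:**
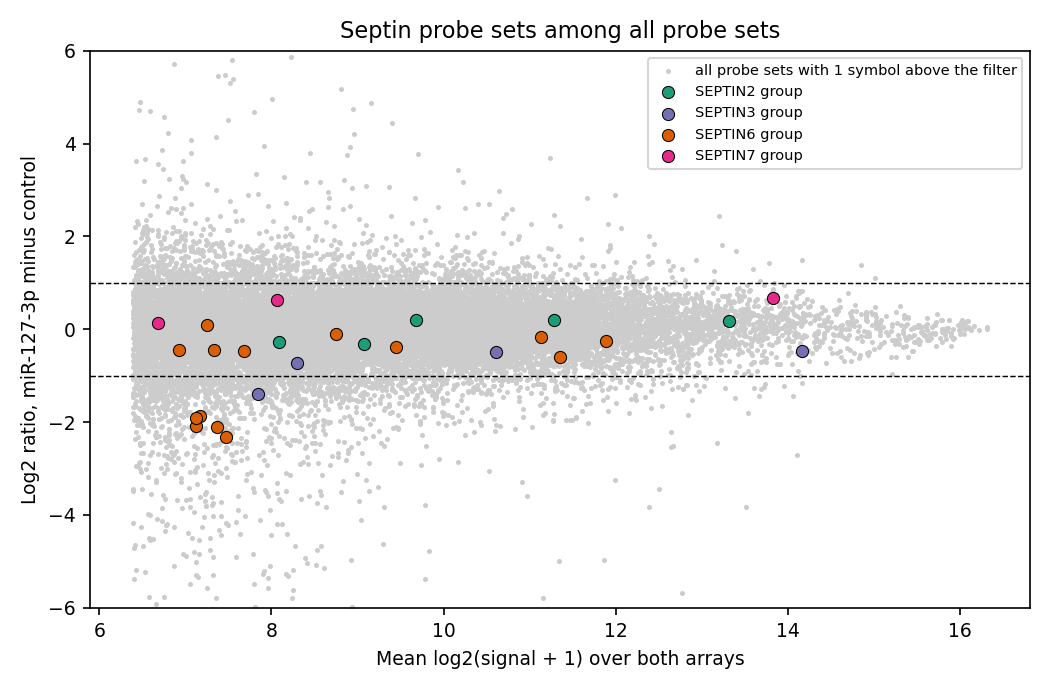
Log2 ratio (vertical, miR-127-3p minus control) against mean log2(signal + 1) of both arrays (horizontal) for all 22459 probe sets with 1 symbol above the filter in grey, with 47 beyond the vertical limits of 6 not drawn, and the 26 septin probe sets coloured by group. The ratios spread less at high signal, where the brightest SEPTIN7 and SEPTIN9 probe sets lie on opposite sides of 0.

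The spread of ratios over all probe sets narrowed with signal, so the members were also set beside probe sets of like signal, those within 0.5 in mean log2 value. This comparison was added after the values were seen. For SEPTIN6, 3.26% of 4175 such probe sets lay at or below the ratio of its brightest probe set, or 2.85% with signals under the array median set to it, and this place is in part fixed because the probe set passed the filter through the control array. The shares at or below were 10.7% of 2333 for SEPTIN8 and 13.3% of 271 for SEPTIN9. For SEPTIN10, SEPTIN11 and SEPTIN4 the shares were 25.9%, 30.9% and 35.3%. For SEPTIN2, 40.1% of 539 lay at or above its ratio. The brightest probe sets of SEPTIN2, SEPTIN4, SEPTIN10 and SEPTIN11 thus lay well inside the ratios usual at their signal.

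Transcripts of genes whose proteins bind or work with septins were counted at their brightest probe set, beside the 8.51% of all 11985 genes at least 2-fold lower and the 5.21% at least 2-fold higher. All 12 septin-binding genes were above the filter, and at that probe set 1 of them was at least 2-fold lower, a share near that of all genes, and none was higher. The 1 lower gene was CDC42EP5, at 140 against 345 in the control, or 2.46-fold lower. It encodes a Borg protein, one of the CDC42 effectors that bind septins directly. SORBS2, a scaffold gene of this list, had weaker probe sets down to -2.18. The other Borg genes CDC42EP1 to CDC42EP4 had log2 ratios between -0.24 and 0.40, and ANLN, which encodes the furrow scaffold anillin, was at 0.31. Their list median was -0.14. Of 20 genes of cytokinesis, the contractile ring and abscission, 17 were above the filter and none of the 17 reached 2-fold at its brightest probe set, with ROCK2, a kinase that activates myosin, lowest at -0.97 and KIF23, a kinesin of the central spindle, highest at 0.58. Their median was -0.08. None of the 8 exocyst genes, which encode a complex that tethers secretory vesicles, reached 2-fold at its brightest probe set, though another EXOC4 probe set was at 1.23, with EXOC6 at -0.89, EXOC5 at 0.58 and a median of 0.27. The median over all 11985 genes was 0.01.

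**Figure D4:**
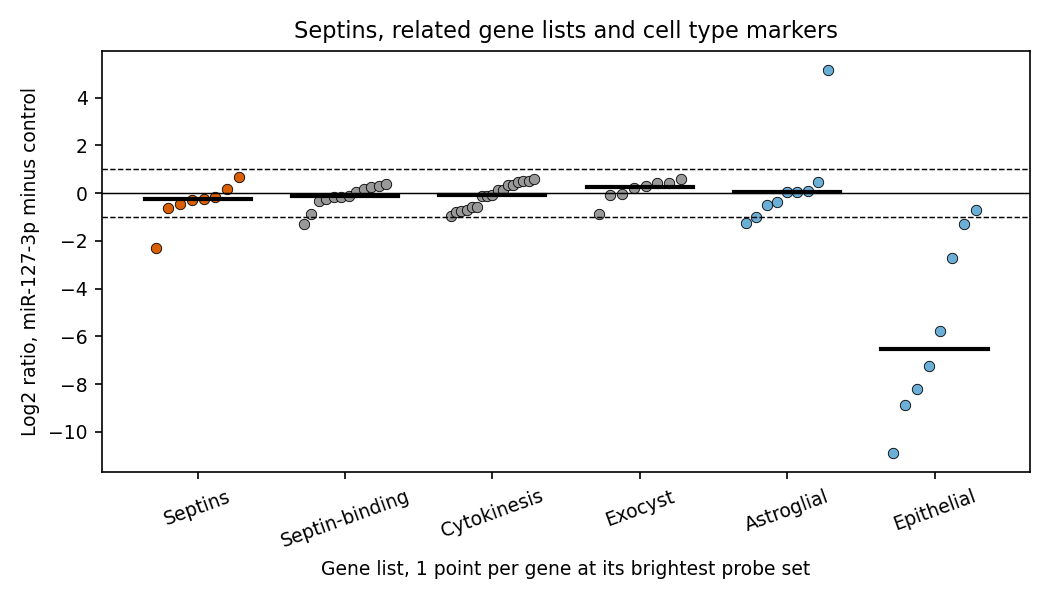
Log2 ratio (vertical, miR-127-3p minus control) of each gene at its brightest probe set above the filter, by list, with a bar at each list's median and dashed lines at 2-fold. SEPTIN6, drawn at -2.32, is lower than all genes of the 3 lists of septin partners, though a SORBS2 probe set not drawn lay at -2.18. Epithelial markers extend to -10.90. This value and that of SEPTIN6 rest on signals under the miR-127-3p array median.

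Markers of cell types were read on the same pair of arrays, and their differences varied by list. At 1 probe set per gene, the brightest, the control array was the brighter for all 12 epithelial markers, which held the sums given beside SEPTIN6, while another KRT7 probe set had a ratio of 0.77. Of the 8 that passed the filter, 7 were lower by 2-fold or more, beside 8.51% of all genes. Their median log2 ratio was -6.52, or -4.77 with signals under an array's median set to that median, since 4 of the 8 have only a limit. Those 4 passed the filter through the control array, where they were bright. A large difference is therefore in part built into their passing and into the count of 7. OCLN, also among the 7, had another probe set at a ratio of -0.19. With miR-127-3p, 8 of the 12 were under the array median, EPCAM, CDH1, DSP, ESRP1 and KRT19 among them, whereas 10 were above it in the control. Of the 12 astroglial and glioma markers, 9 exceeded the median with miR-127-3p, 8 did so in the control, and the list had sums of 86513 and 80427. Of the 9 that passed the filter, SLC1A3, a glial glutamate transporter, was higher by at least 28.4-fold, at 2689 against 73.9. SOX2, a stem cell transcription factor, and NES, the filament protein nestin, were 2.35-fold and 2.02-fold lower. Another NES probe set did not reach 2-fold, at a log2 ratio of -0.45. SLC1A3 passed the filter through the miR-127-3p array, so its difference is in part built in as well. VIM and CD44 were bright on both arrays, whereas GFAP, the defining astrocyte filament, gave 14.9 and 34.2 and lay under both medians. Of the neuronal markers, which bear on SEPTIN3, 3 of 10 were above the median on each array, summing to 6873 and 5514, with SNAP25 2.29-fold higher and SYT1, another synaptic gene, 2.49-fold lower, and of 5 measured blood markers 2 were, with sums of 366 and 283. PTPRC, the defining marker of white blood cells, was under both medians with 46.2 and 23.9. The part of these differences in the values of SEPTIN8 and SEPTIN9 was not tested either.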

How the data were processed

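Biotin-labelled cRNA was prepared from 250 ng of total RNA with an Affymetrix 3′ IVT kit, per the labels' protocols, so signals come mainly from transcript 3′ ends. The authors deposited 1 linear signal intensity per probe set and array. Both arrays share a mean of 500.1 after 2% of probe sets were trimmed at each end, as found from the values. The summarisation software is not given in the sources used here. The platform annotation paired 41091 probe sets with 1 symbol, 1801 with more than 1, and left 11721 unnamed here. Symbols were updated by Entrez identifier through RefSeq (GRCh38.p14), which matched 99.9%. The 62 control probe sets were left out. Ratios used a pseudocount of 1, which understates changes of dim probe sets. With 1 array per group, differences were counted by size alone, at 2-fold.

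Genes named were all septins and, from lists of septin partners, members past 2-fold at the brightest probe set, at most the 3 highest and 3 lowest; ANLN, SORBS2, EXOC4, ROCK2, KIF23, EXOC6, EXOC5, the Borg genes, the SEPTIN7-related transcripts and single markers were named besides, after their values were seen. Members and lists were chosen with earlier results of these data known. Alternatives were other thresholds (1.5-fold, 3-fold), filters, scalings, a pseudocount of 32, a floor, and the mean of a gene's probe sets. The floor for the SEPTIN6 gap and share and for the epithelial median was added after the data were seen. Counting was tested on simulated arrays. Python 3.11.15, numpy 2.4.6, pandas 2.3.3, statsmodels 0.14.6 and matplotlib 3.10.9 were used.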

Additional observations from a re-analysis of the deposited data

How the results depend on the processing

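The count of septin probe sets past 2-fold was 6 and lay within 1.5 times of that under 9 of 12 alternatives. At 1.5-fold it was 10, of which 8 were lower and 2 higher. Of all probe sets with 1 symbol above the filter, 17.4% were lower by 1.5-fold or more. With the filter at the 75th percentile it was 0 of 11 septin probe sets, since this filter removes those of SEPTIN6 and the dim SEPTIN9 one. Of all probe sets with 1 symbol that passed it, 4.59% were at least 2-fold lower. With only probe sets above the array median on both arrays, an alternative added after the data were seen, it was 1 of 21, because the SEPTIN6 probe sets are below that median with miR-127-3p. That 1 was lower, and 5.57% of all such probe sets with 1 symbol were at least 2-fold lower. The septin median kept its sign under all 10 alternatives, from -0.47 to -0.28, and SEPTIN7 stayed above 0 under all 7, from 0.48 with the mean of its probe sets to 0.75. SEPTIN6 ranged from -2.32 to -1.95. Of 49 values for members other than SEPTIN7, all 49 moved by less than the SD of 0.44 between probe sets. Some of the 49 could hardly move, so this tally overstates the stability. The floor changed only SEPTIN6, the deposited values differ only by the subtracted median of -0.0006, and the mean for SEPTIN4 is over 1 probe set. No paired analysis was possible because each group has 1 array, and leaving out an array leaves no comparison. The number of arrays limits the precision.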

Other observations

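Values outside the rules for named genes, chosen after they were seen, are given here without explanation. SORBS2, which encodes a scaffold that binds actin regulators and septins, was dimmer with miR-127-3p at all 8 of its probe sets above the filter, with log2 ratios from -2.18 to -0.81, although its brightest probe set, with 561 against 1034, did not reach 2-fold. Probe sets of EXOC4, an exocyst subunit, ran from -0.0022 to 1.23, with the brightest at 0.31. MYL12A, a regulatory light chain of non-muscle myosin, lay on both sides of 0, from -1.35 to 0.24.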
